A study of Mus musculus with 8 samples.

Results

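Electrophiles are reactive carbonyls, quinones and lipid aldehydes that form when oxidants attack lipids and other molecules, and cells dispose of them by conjugation to glutathione, by oxidation or by reduction. Many of the enzymes involved are controlled by the transcription factor NRF2, which the adaptor KEAP1 marks for degradation until electrophiles modify KEAP1. BACH1, a repressor that binds haem, occupies many of the same DNA elements as NRF2 together with small MAF proteins. The genes followed here are the enzyme genes Gsta4, Aox1, Nqo1, Blvrb and Dhrs4, the growth inhibitor gene Osgin1 and the repressor gene Bach1. They were taken by gene symbol from the platform annotation, with dim probes kept, and make up 7 of the 7053 genes with a named probe. Each of the 7 was represented by 1 probe.

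The muscle was the extensor digitorum longus (EDL), a muscle of the shin that is made mainly of fast fibres, taken from mice without Sod1 (labelled sod-/-) and from wild-type mice, all aged 7 months. Sod1 encodes the copper-zinc superoxide dismutase of the cytosol, and the series asks how muscle transcription responds to chronic oxidative stress. There were 4 arrays per genotype, 8 in all, hybridised with biotin-labelled cRNA made from total RNA. The labels name no strain, sex, knockout allele or other agent, and are silent on whether each sample was a different animal, so the p-values rest on a spread among samples that may be technical. Sod1 itself was not analysed here, and the genotype labels therefore stand unchecked.

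All values are log2 intensities that share 1 distribution across arrays, running from 3.21 to 14.19 with a median of 6.93, and each difference is knockout minus wild type. The number of arrays limits the precision, with a median standard error of 0.23 over the 9232 probes. Of 14 skeletal fibre markers 12 had a probe, and their mean level was 13.71 to 13.77 in the knockout and 13.59 to 13.71 in the wild type, near the top of the scale, as the tissue label requires. Across probes, array profiles had Pearson r of 0.947 to 0.977 among knockout arrays and from 0.926 to 0.979 between genotypes. The lowest array weights estimated from the data were those of knockout replicate 2 (0.60) and wild-type replicate 2 (0.54). In whole muscle, fewer cells of a type and less RNA per cell cannot be told apart.

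Promoter windows from RefSeq (GRCm38.p6) were found for 6 of the 7 genes, with Gsta4 the exception, and are shown for the pair that share a motif. Each window runs from 250 bases before to 50 bases after the annotated start, and sequence further out was not searched. The windows were searched on both strands for TGACNNNGC, the core of the antioxidant response element bound by NRF2, and for TGACTCA, the core shared by AP-1 sites and by elements bound by MAF partners such as BACH1. The motifs can overlap, since TGACTCA followed by GC holds both. TGACNNNGC was in 0 of the 7 windows of the 6 genes, Blvrb having 2 windows, against 12.4% of all windows in the table. TGACTCA was in 2, those of Aox1 and Osgin1, against 5.2% of all windows. A match, or the lack of one in so short a window, is a description of the letters only. The Aox1 window lies at chr1:58029719-58030018 on the plus strand and the Osgin1 window at chr8:119436897-119437196 on the plus strand, both printed 5′ to 3′ with TGACTCA in capitals. The match begins 220 bases before the annotated start of Aox1 and 97 bases before that of Osgin1.
Aox1: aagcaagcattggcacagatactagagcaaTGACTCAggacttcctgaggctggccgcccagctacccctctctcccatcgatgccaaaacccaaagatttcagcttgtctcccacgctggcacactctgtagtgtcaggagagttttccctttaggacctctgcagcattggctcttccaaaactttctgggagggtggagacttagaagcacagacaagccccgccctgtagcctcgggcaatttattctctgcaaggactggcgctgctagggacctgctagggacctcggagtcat
Osgin1: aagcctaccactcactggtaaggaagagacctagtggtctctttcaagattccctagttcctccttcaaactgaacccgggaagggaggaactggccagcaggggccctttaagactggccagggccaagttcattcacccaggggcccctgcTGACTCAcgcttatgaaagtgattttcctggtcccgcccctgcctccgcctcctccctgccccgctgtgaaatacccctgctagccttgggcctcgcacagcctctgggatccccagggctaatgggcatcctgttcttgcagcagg
The mean differences of these 2 genes between genotypes had opposite signs, 0.57 for Aox1 and -1.40 for Osgin1.

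The comparison asks whether the 7 genes stood at other levels in muscle without Sod1. The 7 genes did not move as a block: Gsta4, Dhrs4, Aox1 and Nqo1 had higher means in the knockout by 0.50 to 0.96, Blvrb was level at 0.04, and Osgin1 and Bach1 had lower means, by -1.40 and -0.40. With limma and Benjamini-Hochberg adjustment over all 9232 probes, 0 of the 7 had an adjusted p under 0.05, where 0% of all probes did and the smallest adjusted p of any probe was 0.249. Without knockout replicate 2, 56 probes passed, and 0 of them were members. The median difference was 0.50 over the 7 genes and -0.04 over all 7053 genes.

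At an unadjusted p under 0.05, Gsta4 and Dhrs4 were higher and Osgin1 was lower in the knockout, 3 of 7, where 5.72% of all probes were higher and 4.69% lower, 10.4% in both directions. All 4 knockout values lay above all 4 wild-type values for Dhrs4 alone among the 7, as they did for 2.78% of all probes (5.56% with both directions counted). No test of these shares was made, since the genes were proposed with results of these arrays known.

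**Figure D1:**
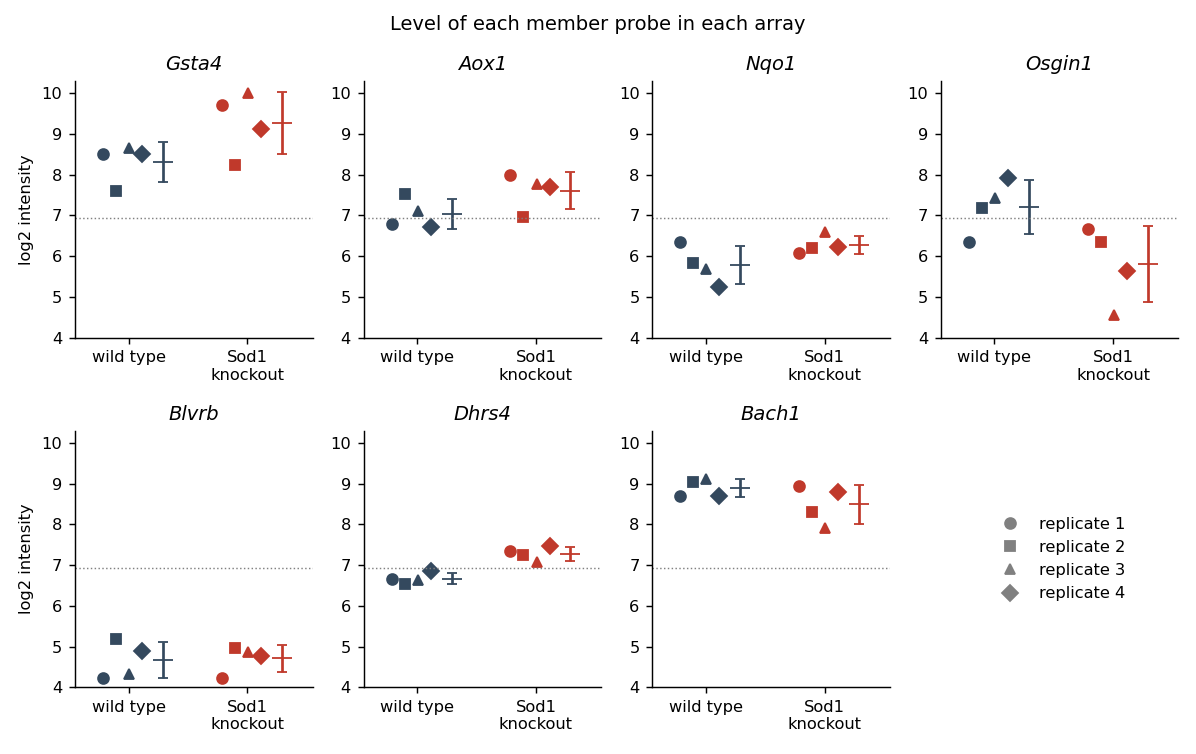
Log2 intensity of each of the 7 probes (vertical axis) in the 4 wild-type arrays (blue-grey) and 4 Sod1 knockout arrays (red), with marker shapes for replicate numbers, bars for the mean ± SD (n = 4) and a dotted line at the array median of 6.93. The groups separate for Dhrs4 and overlap for the other 6, with Osgin1 reaching 4.56 in knockout replicate 3.

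Gsta4 encodes a glutathione transferase that prefers 4-hydroxynonenal and related lipid aldehydes. Its level was 9.71, 8.25, 10.0 and 9.13 in knockout replicates 1 to 4 and 8.50, 7.59, 8.66 and 8.52 in wild-type replicates 1 to 4. Knockout replicates 1, 3 and 4 lay above every wild-type array, whereas replicate 2 lay below wild-type replicates 1, 3 and 4, so the groups overlapped. The mean was 9.27 ± 0.77 (SD, n = 4) against 8.32 ± 0.49, a difference of 0.96 (SE 0.38, 95% interval 0.10 to 1.81) or 1.94-fold, with a limma p of 0.0319 and an adjusted p of 0.438. Of all probes, 1.59% differed upwards by as much or more. The difference was 1.30 without knockout replicate 2 and 0.71 without either knockout replicate 3 or wild-type replicate 2.

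Aox1 encodes aldehyde oxidase, a molybdenum-containing flavoenzyme that oxidises aldehydes and heterocycles and releases hydrogen peroxide or superoxide in doing so. Its level was 8.0, 6.96, 7.78 and 7.69 in knockout replicates 1 to 4 and 6.80, 7.52, 7.12 and 6.72 in wild-type replicates 1 to 4. Again knockout replicates 1, 3 and 4 were above all wild-type arrays and replicate 2 was inside the wild-type range. The difference was 0.57 (SE 0.27, 95% interval -0.03 to 1.16), 1.48-fold, with a limma adjusted p of 0.489. Without knockout replicate 2 it was 0.78, and without both arrays numbered 2, a choice made after the data were seen, it was 0.94, with a limma adjusted p of 0.0828.

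Dhrs4 encodes an NADPH-dependent carbonyl reductase of peroxisomes that acts on retinal and other carbonyls. It had the narrowest spread of the 7 genes: 7.36, 7.24, 7.07 and 7.46 in knockout replicates 1 to 4 and 6.65, 6.55, 6.63 and 6.85 in the wild type. The groups did not overlap, and unlike Gsta4 and Aox1, knockout replicate 2 stood with the other knockouts. The mean was 7.28 ± 0.17 (SD, n = 4) against 6.67 ± 0.13, a difference of 0.61 (SE 0.16, 95% interval 0.25 to 0.98) or 1.53-fold, with a limma p of 0.00389 and an adjusted p of 0.279. With any array left out, array weights or cyclic loess, the difference stayed between 0.55 and 0.68, with limma adjusted p-values from 0.139 to 0.543.

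Nqo1 encodes a quinone reductase that transfers 2 electrons at once and so avoids reactive semiquinones. The probe was dim, below the array median in every array. Its level was 6.09, 6.20, 6.60 and 6.22 in knockout replicates 1 to 4 and 6.36, 5.84, 5.68 and 5.24 in wild-type replicates 1 to 4. Wild-type replicate 1 stood above 3 knockouts, and the other 3 wild-type arrays stood below all of them. The difference was 0.50 (SE 0.24, 95% interval -0.05 to 1.04), 1.41-fold, with a limma adjusted p of 0.507, and it was 0.32 without wild-type replicate 4.

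Blvrb encodes biliverdin reductase B, a flavin reductase that is abundant in red cells. The probe was dim, below the array median in every array, with levels of 4.24, 4.97, 4.86 and 4.78 in the knockout and 4.24, 5.19, 4.34 and 4.90 in the wild type. The knockout values lay within the wild-type range, and replicate 1 was the lowest in both groups. The difference was 0.04 (SE 0.26), and the 95% interval from -0.53 to 0.62 leaves room for a change of either sign. Its sign turned when certain arrays were left out, for example to -0.10 without wild-type replicate 1. Red cell markers, of which 3 of 6 had a probe, had mean levels of 8.28 to 8.67 in the knockout and 8.29 to 9.14 in the wild type, also overlapping.

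**Figure D2:**
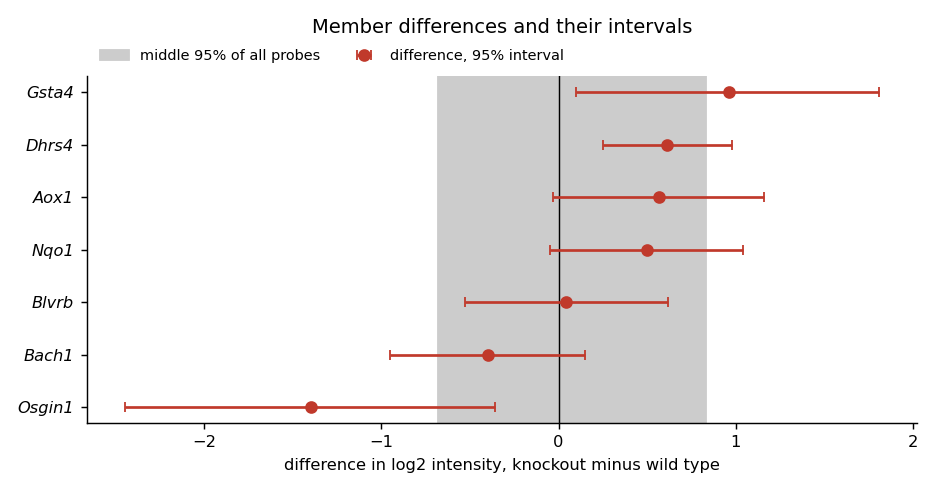
Difference in log2 intensity between Sod1 knockout and wild type for the 7 genes (points) with 95% intervals from limma (bars), beside the range that holds the middle 95% of all probes (grey band, -0.68 to 0.83). Osgin1 and Gsta4 lie outside the band, and the intervals of Gsta4, Dhrs4 and Osgin1 exclude 0 before any adjustment for the number of probes.

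Osgin1, an oxidative stress-induced growth inhibitor whose human counterpart responds to NRF2, went the other way and had the largest difference of the 7. Its level was 6.68, 6.36, 4.56 and 5.64 in knockout replicates 1 to 4 and 6.34, 7.18, 7.42 and 7.91 in wild-type replicates 1 to 4. The overlap came from wild-type replicate 1, which was below knockout replicates 1 and 2, while wild-type replicates 2, 3 and 4 were above every knockout. The mean was 5.81 ± 0.94 (SD, n = 4) against 7.21 ± 0.66, a difference of -1.40 (SE 0.47, 95% interval -2.45 to -0.36) or 2.65-fold lower, with a limma p of 0.0133 and an adjusted p of 0.373. Only 8 probes of the 9232, Osgin1 included, had a difference as low. The probe was above the array median in 3 arrays, all wild type, so it would have been dropped by a filter on low values. Knockout replicate 3 carried much of the size, and without it the difference was -0.99.

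Bach1 had the lower mean in the knockout as well. Its level was 8.95, 8.31, 7.92 and 8.79 in knockout replicates 1 to 4 and 8.69, 9.05, 9.11 and 8.71 in wild-type replicates 1 to 4. Knockout replicates 1 and 4 lay inside the wild-type range and replicates 2 and 3 below it. The difference was -0.40 (SE 0.25, 95% interval -0.95 to 0.15), 1.32-fold lower, with a limma adjusted p of 0.602, and without knockout replicate 3 it was -0.21.

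Markers of some other cells had lower mean levels in the knockout, as Osgin1 and Bach1 did. Endothelial markers, 5 of 6 with a probe, were lower in the knockout in 5 of 5, where 3870 of all 7053 genes were lower. Their mean levels were 6.20 to 6.57 against 6.43 to 6.99. The largest differences of the 5, -0.66 for Tie1 and -0.50 for Tek, came from dim probes, below the array median in every array. The 2 of 9 adipocyte markers with a probe, Fabp4 and Lpl, had mean levels of 8.06 to 8.40 against 8.61 to 8.72. Lpl overlapped, at 11.97 to 12.59 against 11.92 to 12.73. Fabp4 was dim, below the array median in every array, and separated by a narrow margin, at 4.10 to 4.50 against 4.53 to 5.30. The 2 of 6 Schwann cell markers with a probe, Mbp and Pmp22, had mean levels of 5.79 to 7.65 in the knockout and 7.08 to 7.45 in the wild type. Pmp22 differed by -0.86, but Mbp by only -0.08. Mbp read 6.57, 6.72 and 6.69 in knockout replicates 1, 2 and 4, above the highest wild-type value of 6.55. Its lower knockout mean came from replicate 3 alone, at 4.76. Knockout replicate 3, the lowest array for Osgin1 and Bach1, was the lowest for the means of the Schwann cell, endothelial and adipocyte markers too. The same held for the NRF2 regulators, other NRF2 targets and molybdenum cofactor lists below. This array was the highest for the skeletal fibre markers, glutathione transferases and carbonyl and aldehyde removal genes. For the Schwann cell markers its mean shift was -1.47 from the wild-type mean. Pmp22 was at 6.82 in that replicate, beside 6.87 in replicate 4. Knockout replicate 2 was the highest of all 8 arrays for the Schwann cell mean, with a shift of 0.39. The part of these cells in the differences was not tested. Of 10 macrophage markers 6 had a probe, all below the array median in every array, with mean levels of 4.62 to 6.13 in the knockout and 4.45 to 6.12 in the wild type. Fibroblast markers, 2 of 6 with a probe, stood at 9.57 to 10.04 against 9.65 to 10.13, and smooth muscle markers, 2 of 4, at 6.68 to 7.70 against 7.18 to 7.94. Slow fibre markers, all 6 with a probe, stood at 7.31 to 7.88 against 7.19 to 7.64. These means cover opposite differences, with 4 higher and 2 lower. Tnni1 differed by 0.86 and Myh7 by 0.77, but Myl3 by -1.17. Knockout replicate 2 had the highest mean, with Myl2 at 10.28 and Myl3 at 9.11.

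Across the arrays the 7 genes followed different patterns. Of the 21 pairs of genes, the closest relation was an inverse one between Nqo1 and Osgin1, with a Pearson r of -0.91 and a Spearman rho of -0.98 over the 8 arrays. After each genotype's mean was removed r was -0.85, so the arrays with more Nqo1 had less Osgin1 inside the genotypes too. Osgin1 and Bach1 ran in parallel at r 0.73 (rho 0.62), and at 0.59 within genotypes. Gsta4 and Aox1 had r 0.60 (rho 0.64), and 0.33 within genotypes. Dhrs4 and Gsta4 had r 0.60 (rho 0.55) over all arrays and 0.01 within genotypes, so they shared the offset between genotypes and not the order of arrays within them. These values describe 8 arrays that also share their normalization, and the closest pair was picked from 21 after its values were seen.

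The genes whose profiles lay closest to 3 of the members were sought among 4308 named probes above the array median in at least 4 arrays, by Pearson r over the 8 arrays. Closest to Gsta4 were Rtl8a (r 0.980, rho 1.000), Tmem143 (r 0.979, rho 0.929) and Mpv17 (r 0.977, rho 1.000), the last a protein of the inner mitochondrial membrane. Closest to Dhrs4 were Scp2, a peroxisomal sterol carrier protein (r 0.958, rho 0.952), Myl12a, a light chain of non-muscle myosin (r 0.954, rho 0.905), and Pdlim1 (r 0.935, rho 0.857). Closest to Bach1 were Lrg1 (r 0.973, rho 0.905), Zfp263 (r 0.970, rho 0.976) and Map2k3, a kinase upstream of p38 (r 0.964, rho 1.000). The highest of 4308 coefficients over 8 arrays is large by selection. Genotype means were not removed here, so an offset shared between genotypes enters r. Scp2, Myl12a and Pdlim1 differed between genotypes by 0.45, 1.87 and 0.53. Rtl8a, Tmem143 and Mpv17 differed by 0.26, 0.33 and 0.57, and Lrg1, Zfp263 and Map2k3 by -0.41, -0.18 and -0.25. The filter also lets in probes that, like that of Dhrs4, are above the median in the knockout arrays only.

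**Figure D3:**
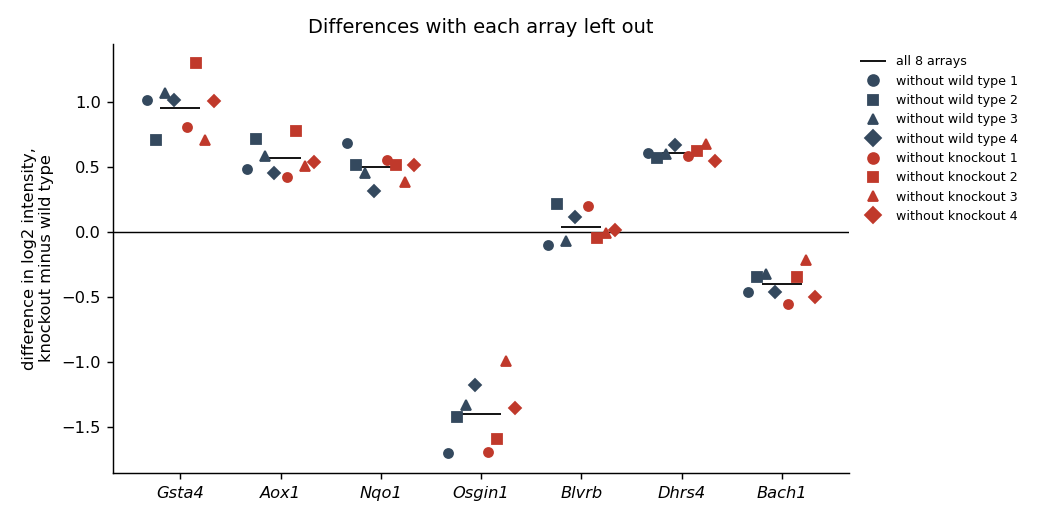
Difference in log2 intensity, knockout minus wild type, for each of the 7 genes with all 8 arrays (black dash) and with each array left out in turn (blue-grey for wild-type arrays, red for knockout arrays, shapes for replicate numbers). Dhrs4 stays between 0.55 and 0.68, Gsta4 reaches 1.30 without knockout replicate 2, and Blvrb crosses 0.

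The upstream side of the pathway was read from a list of 15 NRF2 regulators and partners, of which 12 had a probe; 3 were higher and 9 lower in the knockout, with a median difference of -0.29 against -0.04 over all genes, and of -0.167 without wild-type replicate 2. None passed limma's adjusted threshold. Keap1 had 3 probes, and on each of them all 4 knockout values lay below all 4 wild-type values, as they did for 2.77% of all probes. The brightest Keap1 probe read 9.95, 10.42, 9.70 and 10.37 in knockout replicates 1 to 4 and 10.63, 10.72, 10.53 and 10.58 in the wild type, a difference of -0.50 with a limma adjusted p of 0.426. The other 2 Keap1 probes differed by -0.54 and -0.49, with limma adjusted p-values of 0.365 and 0.386. Their groups separated by narrow margins. The highest knockout values were 9.18 and 9.38, beside lowest wild-type values of 9.23 and 9.41, both in wild-type replicate 1. Probes of 1 gene on the same arrays measure the same RNA and are not independent replicates. Nfe2l2, which encodes NRF2, was dim and ran from 3.37 to 5.74 in the knockout and from 4.70 to 5.74 in the wild type, a difference of -0.83 with a 95% interval from -1.86 to 0.21. Gsk3b, a kinase that can promote NRF2 degradation independently of KEAP1, differed by -0.50, at 7.71 to 8.30 against 8.24 to 8.95.

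Of 27 other NRF2 targets listed, 15 had a probe; 3 were higher and 12 lower, with a median difference of -0.20 and none past limma's adjusted threshold. Txnrd1, the cytosolic thioredoxin reductase, was dim, below the array median in every array. It was below the wild type in all 4 knockouts, at 5.35 to 5.81 against 6.03 to 6.90, as 2.77% of all probes were. The difference was -0.73 with a limma adjusted p of 0.324. Gsr, glutathione reductase, differed by -0.88 with overlapping groups, and Taldo1, transaldolase of the pentose phosphate pathway, by 0.29. Hmox1, the haem oxygenase gene that BACH1 represses, is named outside the rule for this list, after its values were seen. It ranged from 6.56 to 9.32 in the knockout and from 7.16 to 10.71 in the wild type, a difference of -0.62 (SE 0.84). Srxn1, also named outside the rule, was counted as lower at -0.60, while its other probes differed by 0.01 and 0.22.

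The other glutathione transferases, set beside Gsta4, numbered 13 with a probe of 25 listed; 8 were higher and 5 lower, with a median difference of 0.08 and none past limma's adjusted threshold. That median was -0.0185 without wild-type replicate 4, 0.0211 and 0.0502 without knockout replicates 1 and 4, and 0.12 without knockout replicate 2. Gstt3 and Gstt1 had the smallest p; the third theta class gene with a probe, Gstt2, differed by 0.02 (SE 0.26) and is named outside the rule. Gstt3 read 7.74, 6.57, 8.20 and 7.51 in knockout replicates 1 to 4 and 6.0, 6.47, 6.36 and 6.54 in the wild type. All 4 knockouts were above all wild-type arrays, as for 2.78% of all probes, replicate 2 by the narrowest margin. The difference was 1.16 (SE 0.32), with a limma p of 0.00441 and an adjusted p of 0.284. Gstt1 read 7.52, 5.51, 7.49 and 6.94 in the knockout and 4.74, 5.55, 5.34 and 6.05 in the wild type, a difference of 1.45 (SE 0.45) with a limma adjusted p of 0.348. As for Gsta4, knockout replicate 2 lay inside the wild-type range of Gstt1 while the other 3 lay above it. The Gstt3 and Gstt1 probes were each above the array median in 3 arrays, all knockout, so a filter on low values would have dropped both. Gstz1, which acts in tyrosine breakdown, differed by 0.40. Gstm2, named outside the rule, was counted at 0.08, while its other probe differed by 0.88 (limma p 0.0112, adjusted p 0.362). Other probes of Gstp1 differed by 0.07 and 0.21, beside -0.02 for the one counted, and that of Mgst3 by -0.23, beside -0.25.

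Enzymes that share the chemistry of Dhrs4, Nqo1 and Aox1 came next. Among 20 genes of carbonyl and aldehyde removal with a probe, of 29 listed, 13 were higher and 7 lower, with a median difference of 0.11. It was 0.173 and 0.0464 without knockout replicates 2 and 3, and 0.049 and 0.0649 without wild-type replicates 2 and 4. Those of smallest p were Esd, S-formylglutathione hydrolase, at 0.40, Aldh5a1, succinic semialdehyde dehydrogenase, at 0.44, and Dhrs1, a relative of Dhrs4, at 0.24. Among 6 quinone and flavin reductases of 9 listed, 4 were higher and 2 lower, with a median of 0.22. That median rested on single arrays: it was 0.00661 and 0.381 without wild-type replicates 2 and 4, and 0.11 and 0.369 without knockout replicates 1 and 4. Nqo2, the closest relative of Nqo1, read 7.08, 5.24, 7.22 and 5.99 in knockout replicates 1 to 4 and 5.31 to 5.88 in the wild type, so replicate 2 was the lowest of all 8 arrays and the other 3 were above the wild type. Its difference was 0.71, with 0.62 on its other probe, and Cyb5r3 and Cyb5r1, cytochrome b5 reductases, differed by 0.61 and 0.35. Aifm2, named outside the rule, was counted as lower at -0.10, while its other, dim probe differed by 0.44. Among 7 molybdenum cofactor and molybdoenzyme genes of 14 listed, 3 were higher and 4 lower, with a median difference that rounded to 0.00 and ran from -0.145 without wild-type replicate 1 to 0.109 without wild-type replicate 2. Aox3, a second aldehyde oxidase, was dim, at 4.05 to 4.41 in the knockout and 3.31 to 4.05 in the wild type, a difference of 0.48, while Gphn and Mocs1, which act in cofactor synthesis, differed by -0.33 and -0.50. None of these genes passed limma's adjusted threshold.

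Haem synthesis and breakdown, the pathway of Blvrb and of the ligand of BACH1, had 14 genes with a probe of 18 listed; 8 were higher and 6 lower, with a median difference of 0.04 and none past limma's adjusted threshold. The median was 0.177, -0.014 and 0.0157 without knockout replicates 2, 3 and 4, and 0.0253 and 0.1 without wild-type replicates 2 and 4. Slc48a1, a haem transporter of endosomes and lysosomes, was dim, below the array median in every array. It was lower in all 4 knockouts by a narrow margin, at 6.01 to 6.42 against 6.44 to 6.90, as 2.77% of all probes were. The difference was -0.43 with a limma adjusted p of 0.454. Abcb10, a mitochondrial transporter, and Alas1, the first enzyme of haem synthesis, differed by 0.34 and 0.33. Blvra, the other biliverdin reductase gene, is named outside the rule and differed by 0.01. The counts use the brightest probe of each gene, and other probes could differ. Fech, counted at -0.10, had other probes at 0.56 and 0.42. Uros, counted at 0.21, had another at 0.86 (limma p 0.0115, adjusted p 0.365). The other Slc25a38 probe differed by -0.43, beside -0.38 for the one counted.

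**Figure D4:**
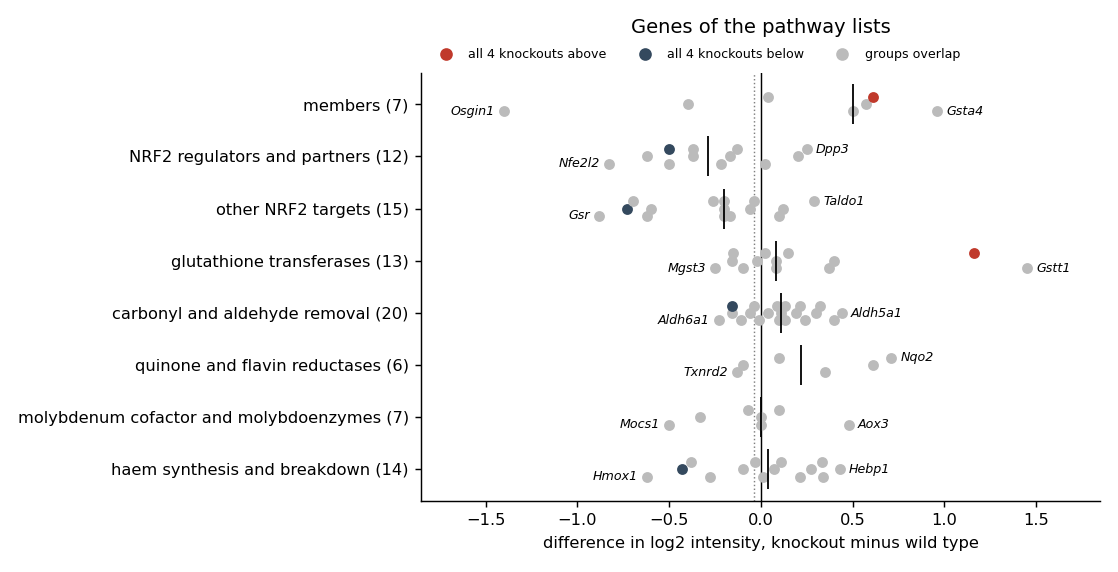
Difference in log2 intensity, knockout minus wild type, for each gene with a probe (points, number in brackets) in the 7 members and the pathway lists, with the list median (black bar) and the median of all genes (dotted line). Red and blue-grey points mark genes whose 4 knockout values all lie above or all below the wild type; the lowest and highest gene of each list is named.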

How the data were processed

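Per the labels' protocols, total RNA was isolated with a fibrous tissue kit and amplified to biotin-labelled cRNA for Illumina arrays. The deposited log2 intensities were used as given. All 8 columns hold the same sorted values, so they were quantile normalized before deposit; base 2 was judged from the range. How background was corrected and probes were filtered is not given in the sources used here. Quantile normalization hides a shift of all transcripts. A second table was not used: its 8 columns are named in a way that no label matches.

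The platform annotation named 1 gene for 8403 of the 9232 probes, several for 3 and none for 826. The fit covered all probes and used limma 3.58.1 under R 4.3.3 (genotype term, two-sided, eBayes without trend), with Benjamini-Hochberg adjustment over all 9232; 0 passed at an adjusted p under 0.05 and 961 had an unadjusted p under 0.05. No filter was applied, since dim probes were to be kept. Of the 7 member probes, 4 were above the array median in at least 4 arrays. Dhrs4 was above it in its 4 knockout arrays only, so it met this filter through the knockout alone. A gene in a list was represented by its probe of highest mean, and its other probes did not enter the counts or medians. The naming rule took all members, the 3 genes of smallest p in each list and the 3 closest profiles of Gsta4, Dhrs4 and Bach1; marker lists are given by levels. The members and lists were chosen with earlier results of these data known. The fit was tested on simulated data. Alternatives were a filter, a variance trend, array weights, a replicate block, cyclic loess, a mean per gene and each array left out.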

Additional observations from a re-analysis of the deposited data

Results flagged for a closer look

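In 106 groups of 4 arrays, from 53 probes of the members and of the genes of smallest p in each list, 8 had 1 array set apart from the other 3; chance flags about 1 in 20. Among the members this was Gsta4 in wild-type replicate 2, at 7.59 where the other wild-type arrays ran from 8.50 to 8.66; without that array the Gsta4 difference was 0.71. The same array was apart for Aldh5a1, at 8.88 against 8.25 to 8.31, and for Mb, at 12.67 against 13.48 to 13.63. A Keap1 probe stood at 9.41 in wild-type replicate 1 against 9.79 to 9.85. In wild-type replicate 4, Lpl was at 11.92 against 12.62 to 12.73 and Acta2 at 10.09 against 9.03 to 9.18. In the knockout, Lyz2 was at 4.55 in replicate 1 against 6.21 to 6.38, and Mbp at 4.76 in replicate 3 against 6.57 to 6.72.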

How the results depend on the processing

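The number of members past the adjusted threshold was 0 under every alternative run. The number of all probes past it was 0 with all arrays, 5 with array weights, from 0 to 56 with 1 array left out (56 without knockout replicate 2, 0 without any other) and 88 without both arrays numbered 2. Of 95 member differences under an alternative, 91 kept their direction and side of the threshold. The filter, the variance trend and the replicate block cannot change a probe's difference in this balanced design. For these only the p-values could move. The other 4 were all Blvrb, at -0.04 and -0.0046 without knockout replicates 2 and 3 and at -0.10 and -0.063 without wild-type replicates 1 and 3; the cause was not tested. The ranges were 0.71 to 1.30 for Gsta4, 0.43 to 0.94 for Aox1, 0.32 to 0.69 for Nqo1, -1.70 to -0.99 for Osgin1, -0.10 to 0.22 for Blvrb and -0.55 to -0.21 for Bach1. The filter gave no value for Nqo1, Osgin1 and Blvrb, and a mean per gene changed no member, each having 1 probe. Of 169 medians of the members or of a list under an alternative, 3 moved by more than the spread between arrays: the members to 0.316 without wild-type replicate 4, and with the filter the endothelial markers to -0.278 and the adipocyte markers to -0.231, over the 3 and 1 genes left. The spread is wide beside most list medians, so the other 166 include turned signs, such as -0.0185 for glutathione transferases without wild-type replicate 4 and -0.0067 for haem genes with the filter. Same-numbered arrays of the genotypes had deviations correlated at -0.15, -0.15, 0.20 and -0.26, and arrays of different numbers at -0.39 to 0.39. With 4 arrays per genotype this cannot settle whether the numbers pair the samples. With a replicate block 0 probes and 0 members passed.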
